A study of Homo sapiens with 38 samples.

Results

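BHLHE40 binding was described gene by gene in stimulated Jurkat cells that carried a control lentivirus. All 26205 regions of the authors' BHLHE40 list were used, out of 168784 regions in the 3 lists of control-lentivirus cells analysed here (BHLHE40, GATA3 and H3K27ac). Each region was given to 1 gene: the protein-coding RefSeq gene record nearest to its summit, the base of highest signal, within 100 kb. Genes were then described by the number of regions they received and by the strength of those regions.

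Jurkat is an established human T-cell acute lymphoblastic leukaemia (T-ALL) line. The study used chromatin immunoprecipitation and sequencing (ChIP-seq), in which fixed DNA is pulled down with an antibody and places rich in reads are listed as regions. The BHLHE40 group held 2 samples of genotype Ctrl_LV, a control lentivirus, precipitated with a Novus Biological antibody against BHLHE40. The cells had received PMA (50 ng/ml) together with ionomycin (500 ng/ml), which bypass the T-cell receptor. The labels do not say whether the control cells were a clone or a pool. The duration of stimulation was 5 hours in the sample labels and 2 hours in the treatment protocol. The same cells without stimulation were not analysed here, so nothing below separates stimulated from resting binding.

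BHLHE40, also known as DEC1, is a basic helix-loop-helix protein that binds the palindromic E-box CACGTG as a dimer and mostly represses transcription. It belongs to the circadian clock, where it acts on E-boxes of clock genes in competition with the CLOCK and BMAL1 activators. In T cells it is induced by receptor signals and shapes cytokine production and mitochondrial metabolism. GATA3 is a zinc finger factor of T-cell development, and H3K27ac is the histone mark of active promoters and enhancers.

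The strongest regions that lay at a promoter and held an E-box are shown first, as examples that hold the sequence the protein is known to read. Each line gives 30 bases of the coding strand of the gene, 5′ to 3′, from the RefSeq promoter table of build GRCh38.p14, with CACGTG in capitals. The first 5 are the promoters with the highest signal value among those with an E-box, and NR1D2 is added as a clock gene that encodes the nuclear receptor REV-ERB beta.
CCDC86, chr11:60842076-60842105, plus strand: cggcgggggctgCACGTGcgcaggggtgtg
CLUAP1, chr16:3500902-3500931, plus strand: cccgtgcgtatgCACGTGccgccgcgtctt
STMN1, chr1:25906496-25906525, minus strand: gggcgggggcggCACGTGccgccgctctcg
SCAP, chr3:47475982-47476011, minus strand: cgccgctgggcgCACGTGcggagggcggcg
TBL1X, chrX:9463215-9463244, plus strand: ggggaagggaagCACGTGtagccagggcag
NR1D2, chr3:23946004-23946033, plus strand: gggccgcagggaCACGTGggggcgggggcg

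These windows lay upstream of the listed starts, with the first base of the E-box 25 bases before the start in CCDC86, 90 in CLUAP1, 94 in STMN1, 58 in SCAP, 68 in TBL1X and 105 in NR1D2. The BHLHE40 summit fell 23.5 bp from the middle of the E-box in CCDC86, 15.5 bp in CLUAP1, 14.5 bp in STMN1, 20.5 bp in SCAP, 70.5 bp in TBL1X and 8.5 bp in NR1D2. Thus in 5 of these 6 promoters the summit was within 25 bp of the motif. Over all 647 promoter regions with an E-box the share was 35.4%, so these chosen promoters do not stand for the rest. STMN1 and NR1D2 each held a second E-box, closer to the start in STMN1 and farther from it in NR1D2.

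A longer stretch is shown for LAMP1, which encodes an abundant lysosomal membrane protein, because its promoter held 6 E-boxes. The 250 bases before the start (chr13:113296989-113297238, plus strand) are printed with the E-boxes in capitals. The sixth begins at the last base and is not marked.
LAMP1: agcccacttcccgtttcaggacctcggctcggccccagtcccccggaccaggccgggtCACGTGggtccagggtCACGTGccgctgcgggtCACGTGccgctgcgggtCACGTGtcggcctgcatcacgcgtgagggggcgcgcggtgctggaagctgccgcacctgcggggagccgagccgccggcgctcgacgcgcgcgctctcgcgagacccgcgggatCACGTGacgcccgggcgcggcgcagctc

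The signal value of the LAMP1 region was 50.0. The summit was placed 137 bases before the start, 2.5 bp from the middle of the nearest E-box. SDE2, a gene of DNA replication and splicing, had the strongest promoter region of all and no E-box. Its 250 bases before the start (chr1:225999344-225999593, minus strand) are printed for comparison, with no capitals because no E-box was found.
SDE2: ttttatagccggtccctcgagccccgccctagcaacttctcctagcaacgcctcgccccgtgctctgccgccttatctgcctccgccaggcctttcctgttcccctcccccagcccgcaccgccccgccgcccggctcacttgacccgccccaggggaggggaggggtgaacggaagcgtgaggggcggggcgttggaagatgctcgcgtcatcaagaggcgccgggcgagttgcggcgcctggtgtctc

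The signal value is the authors' enrichment per region on a scale whose reference the sources used here do not give. It ran from 1.24 to 226 over the 26205 regions, with a median of 9.35, a 90th percentile of 21.9 and a 99th percentile of 56.2. The list stands for both samples together, so replicate spread could not be computed, and nothing says whether the 2 samples came from separate cultures. The sequencing depth is unknown. No test was run: shares carry 95% Wilson intervals that cover counting only, and neighbouring regions or genes are not independent.

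The labelled cell type was checked on the same lists. Of 12 T-cell marker genes, among them CD2, LCK and ZAP70, 11 had a BHLHE40 region and 11 had an H3K27ac region at −log10 q 5 or above. The twelfth, CD3G, had no region of its own, but a summit assigned to its neighbour CD3D lay 1658 bp away. Among 32 defining genes of other blood lineages, 13 had a BHLHE40 region and 8 an H3K27ac region at that threshold. Over all protein-coding genes, 57% had a BHLHE40 region and 57.9% such an H3K27ac region.

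Most BHLHE40 regions lay in or near a protein-coding gene. Of 26205 regions, 24314 (92.8%, interval 92.5% to 93.1%) were assigned to a gene, 14286 of them inside the gene record. Another 6319 (24.1%) lay outside but within 10 kb, and 3709 (14.2%) lay between 10 and 100 kb. On chromosomes, 1867 regions (7.12%) had no protein-coding record within 100 kb, and 24 regions fell on 12 unplaced scaffolds. The gene table gives whole records, so a summit inside a gene cannot be placed in an exon, an intron or an untranslated region.

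These distance classes differed in the marks they overlapped more than in signal value. The H3K27ac overlap was highest for regions outside a record but within 10 kb, at 84.3%, and was 76.6% inside records and 68.9% from 10 to 100 kb. GATA3 overlap ran the other way, at 42.3% within 10 kb, 53.1% inside and 61.6% from 10 to 100 kb. Regions without any coding gene nearby had the highest GATA3 overlap, 70.9%, and the lowest H3K27ac overlap of the classes on chromosomes, 63.7%. Median signal values were 9.87, 9.18, 9.15 and 9.46 in the classes within 10 kb, inside, from 10 to 100 kb and without a gene.

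Assignment gave 11413 of 20037 protein-coding genes (57%) at least 1 BHLHE40 region. A single region was the usual case: 6129 genes had 1 region, 2543 had 2 and 1796 had 3 or 4. At least 3 regions were assigned to 2741 genes (13.7%). Few genes gathered many: 945 genes with at least 5 regions held 29.4% of assigned regions, 174 genes with at least 10 held 9.95%, and 16 genes with at least 20 held 1.77%. The plot of genes by number of regions shows the long tail.

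**Figure D1:**
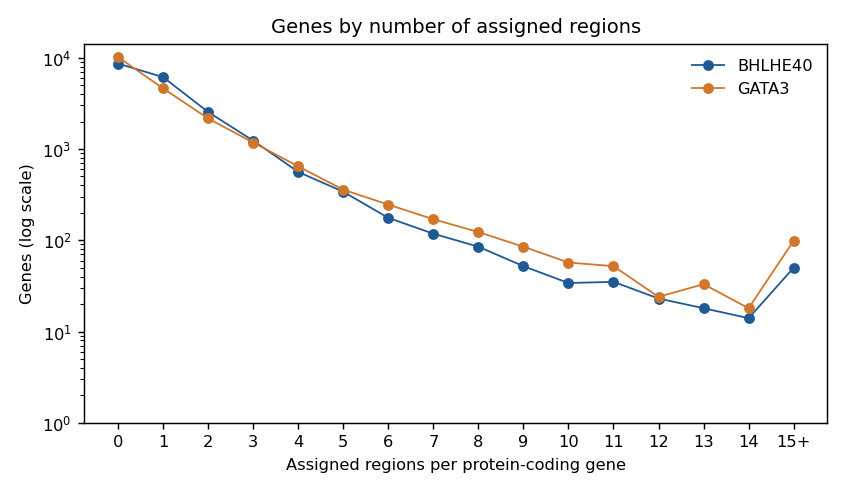
Number of protein-coding genes (y axis, log scale) by number of regions assigned to the gene (x axis, the last class 15 or more), with points joined by lines for the BHLHE40 and GATA3 lists. Both lists fall steeply from the 8624 genes with 0 and the 6129 with 1 BHLHE40 region, and the GATA3 list has more genes in the classes from 4 regions upwards.

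Genes with many regions had long records. The median record length was 14.1 kb for genes with no region, 24.3 kb for genes with 1, 195 kb for genes with at least 10 and 324 kb for genes with at least 20. Across all 20037 genes, Spearman's rho between record length and number of regions was 0.349. The longest and best-filled genes share the same list and the same assignment rule, so this is a description only. Averaged over all stretches from which genes could receive regions, there were 1.16 regions per 100 kb.

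Regions of sparsely and densely bound genes differed in kind. Where a gene had a single region, 59.7% of those regions had their summit within 1 kb of a listed start of any gene, coding or not. Of the same regions, 84.8% overlapped H3K27ac and 43.4% overlapped GATA3. In genes with at least 10 regions, 8.31% were near a start, 73.1% overlapped H3K27ac and 65.5% overlapped GATA3. The shares near a start in this paragraph count regions on chromosomes without listed starts as not near one, unlike those given below. A gene has few starts of its own, so the share can fall for that reason alone as regions are added. The median signal value per region also went down, from 9.82 to 8.78, whereas the median of the strongest region per gene went up, from 9.82 to 34.9, being a maximum over more regions.

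BACH2, a leucine zipper repressor that restrains effector differentiation of lymphocytes, received the most regions. Its 370 kb record (chr6:89926528-90296843) and flanks held 53, of which 48 lay inside the record. That is 10.9 per 100 kb of the stretch nearest to the gene, against the average of 1.16. Signal values in BACH2 ran from 2.40 to 101.6 with a median of 6.51, and the strongest ranked 43 of all regions. The next were 55.7, 38.3 and 27.1. Some regions nearly adjoined, such as chr6:90126533-90128999 and chr6:90129093-90135489, so 53 regions need not be 53 separate sites. Of the 53 regions, 29 overlapped H3K27ac and 26 overlapped GATA3, beside 76.4% and 53.0% of all BHLHE40 regions. The order of genes depended on the rule: by distance to starts, 4 of the 10 genes with the most regions remained among the 10, and at an IDR of 0.01 (a stricter irreproducible discovery rate) 7 did.

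CDK6, the G1 cyclin-dependent kinase that drives entry into the cell cycle, came next with 39 regions. Signal values there ran from 1.86 to 90.5 with a median of 5.31, and 23 of the 39 overlapped H3K27ac. The 35 regions of CHST11, a chondroitin sulfotransferase, were more even. Their signal values ran from 2.03 to 33.2 with a median of 8.53, and no region of CHST11 was among the strongest 1000. RUNX1, a Runt-domain factor of blood development, had 31 regions with signal values from 4.40 to 71.9 and a median of 8.07.

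**Figure D2:**
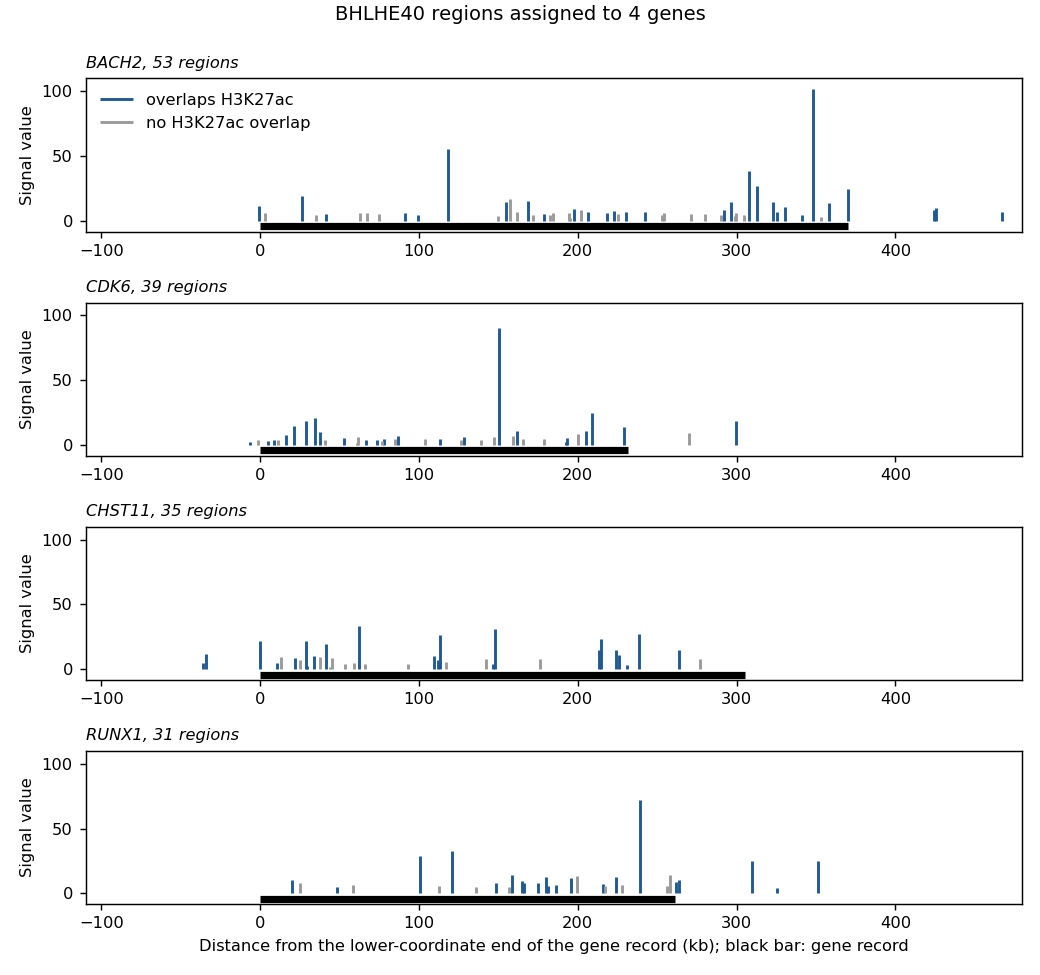
Signal value of each BHLHE40 region (y axis) assigned to BACH2, CDK6, CHST11 and RUNX1 against the distance of its summit from the lower-coordinate end of the gene record in kb (x axis); the black bar is the record, and blue and grey lines are regions with and without H3K27ac overlap. A single tall region stands above many low ones in BACH2 (101.6), CDK6 (90.5) and RUNX1 (71.9), whereas the highest of CHST11 is 33.2.

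The other genes of the leading 10 covered signalling, chromatin and glycosylation. PRKCH, a protein kinase C, and HIVEP3, a zinc finger factor, had 27 regions each, and GALNT2, which starts O-linked glycosylation, had 26. JARID2, a partner of the Polycomb repressive complex, and TOX, a high-mobility-group factor of thymocytes and exhausted T cells, had 24 each. PTPRC, the CD45 phosphatase of all leukocytes, had 22, of which 9 lay inside the record. Some of the others lay in the non-coding record MIR181A1HG, up to 93338 bp from PTPRC. In each of these 10 genes the median signal value was below the list median of 9.35, from 5.31 in CDK6 to 8.95 in GALNT2.

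Ranking by summed signal value kept BACH2 first but changed what followed. The sums were 618 in BACH2, 413 in CHST11, 410 in RGS6, a regulator of G protein signalling, and 402 in RUNX1. CDK6 had 380, AHI1 378, RAD51B 363, FLI1 336, CD226 323 and TOX 323. In AHI1 the strongest region alone made up 59.8% of the sum, against 16.5% in BACH2 and 8.05% in CHST11. Thus a high sum came from many regions in some genes and from very few in others.

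Windows of 100 kb picked out the same loci together with some gene pairs. Windows in BACH2, in CDK6 and at CD40LG and ARHGEF6 on chromosome X each held 20 summits. In the last of these, 14 were assigned to CD40LG, the CD40 ligand of helper T cells, and 6 to ARHGEF6, a guanine nucleotide exchange factor for RAC. Its strongest region had a signal value of 35.5, and 18 of its 20 regions overlapped H3K27ac, against 9 of 20 in the BACH2 window. The 20 regions covered 14869 bp there and 46917 bp in the BACH2 window. Windows at CHST11 and at PELO and ITGA1 followed with 18 each. Of the 17 regions assigned to ITGA1, an integrin chain of collagen receptors, 1 lay inside the record.

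Relative to record length plus 10 kb on each side, compact genes led. Among genes with at least 5 such regions, IRF2BP2, a transcriptional corepressor, had 7 (27 per 100 kb) and ID3, an inhibitor of E proteins, had 5 (23.2). BHLHE40 itself was among the leading genes with 5 (19.3), and 8 regions were assigned to it within 100 kb. NR4A3, a nuclear receptor induced by T-cell receptor signals, had 12 (18.5). BACH2 had 50 regions by this measure, or 12.8 per 100 kb.

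The genes that led by number of regions did not receive the very strongest regions. Number and strength were still related. Across genes with a region, Spearman's rho between number of regions and strongest signal value was 0.447. The strongest value is a maximum over more regions in densely bound genes. Among genes that received the very strongest regions, AHI1 ranked 40 by number of regions and SMCO1 ranked 2742. The region with the highest signal value, 226, lay inside the AHI1 record. The neighbouring gene MYB, a leukaemia transcription factor, received 13 regions with signal values up to 20.3. AHI1 encodes a protein of the primary cilium, and its other 14 regions had signal values up to 21.8. The region second in rank (195) was assigned to DAD1, a subunit of the oligosaccharyltransferase, from 8388 bp. Its summit was nearer, at 4387 bp, to TRAC, the constant segment of the T-cell receptor alpha chain, which is not a protein-coding record in the gene table.

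The segments of the receptor beta chain gave a similar case. A region of 7331 bp and signal value 103 (rank 39) peaked 2352 bp from TRBC2, but was assigned to the trypsinogen gene PRSS2 at 30.3 kb. A region of signal value 72.6 (rank 124) went to PRSS1 at 34.9 kb, and is the reason why PRSS1 leads the list of genes of other tissues below. Reads in near-identical copies such as the trypsinogen genes can be split between them, and this was not tested. Over all 26181 regions on chromosomes, the nearest record of any kind was not protein-coding for 7327, and this held for 49 of the strongest 100.

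The remaining leading regions lay at genes of varied function. SMCO1 received the third (193). The fourth, with a signal value of 170 at chr20:29629064-29630021, had no protein-coding record within 100 kb. SDE2 (169), with its summit 153 bp outside the record, and CD84 (168), an adhesion receptor of lymphocytes, with its summit 773 bp outside, came next. The region of RAD51B (157), a recombination gene, lay 36.8 kb beyond the record, and that of CD226 (152), an activating receptor of T and natural killer cells, lay 18.9 kb beyond. The regions of CABCOCO1 (149) and of the spectrin gene SPTBN1 (147) lay inside their records.

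**Figure D3:**
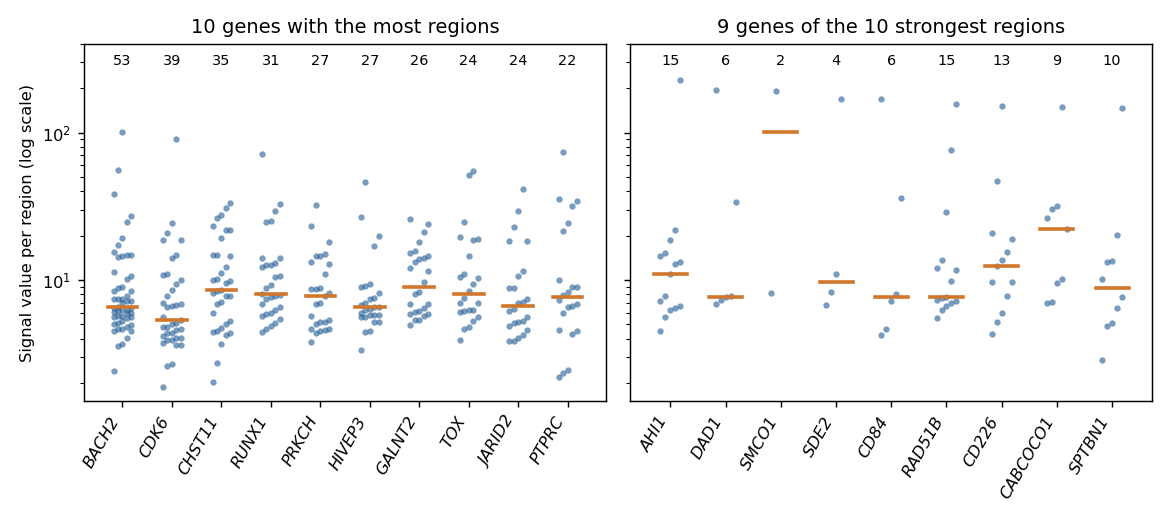
Signal value of each BHLHE40 region (y axis, log scale) for the 10 genes with the most regions (left) and for 9 genes that received 1 of the 10 strongest regions (right); each point is a region, orange bars are medians and the numbers give regions per gene. On the left, medians lie between 5.31 and 8.95. On the right, the highest region of each gene lies between 147 (SPTBN1) and 226 (AHI1).

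All of the 10 strongest regions overlapped a GATA3 region and an H3K27ac region. Of the strongest 100, 97 overlapped GATA3, 97 overlapped H3K27ac and 41 lay inside a protein-coding record, against 53.0%, 76.4% and 54.5% of all regions. Near a listed start, coding or not, were 12.6% of the strongest 100 on chromosomes with listed starts, against 31.9% of all. CCDC86 (rank 12) and CLUAP1 (rank 22), the first promoters printed above, were exceptions that overlapped no GATA3 region. The share near a start was 24.3% in the weakest decile of the list, 40.4% in the eighth and 27.7% in the strongest, so it peaked in regions of intermediate strength.

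Starts were listed for 15843 of the 20037 protein-coding genes. Distances were taken to the nearest of all 35116 start entries, of which 22199 belonged to protein-coding records. The nearest start can thus be that of a non-coding gene, as for the strongest region, 10 bp from the start of LOC124901407. A summit at a start that is not listed counts as farther from starts. One region 11 bp outside the RAD51B record was scored 3178 bp from the nearest listed start, that of ZFYVE26. The classes farther from starts, here and in the shares by signal value, can therefore hold regions at unlisted starts. In all, 25123 regions lay on chromosomes with listed starts. Of these, 8022 (31.9%, interval 31.4% to 32.5%) had their summit within 1 kb of a start. They were wider than the others, with a median of 1040 bp against 645 bp inside records and 640 bp outside. Their overlap with H3K27ac was 92.6%, against 69.6% and 68.0%. Their overlap with GATA3 was 39.3%, against 59.2% and 59.1%. Median signal values were 10.2 near starts, 8.87 elsewhere inside records and 9.12 outside, and the 99th percentiles were 43.6, 58.8 and 64.1. Regions near starts were thus slightly stronger in the middle of the range and weaker at the top.

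GATA3 regions were assigned to genes by the same rule. Regions of both factors were found at 8079 genes (40.3%), BHLHE40 alone at 3334 (16.6%), GATA3 alone at 1786 (8.91%) and neither at 6838 (34.1%). Spearman's rho between the 2 numbers across 20037 genes was 0.636. Both counts depend on gene length and on the same assignment rule. Signal values of the lists were not compared with each other.

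At least 3 BHLHE40 regions and no GATA3 region were found at 164 genes (0.818%), and the reverse at 110 (0.549%). The median record length was 30.8 kb in the first group and 107 kb in the second. It was 103 kb in the 1838 genes with at least 3 regions of both and 24.1 kb over all protein-coding genes. STMN3, a microtubule-destabilising protein gene on chromosome 20, had 6 BHLHE40 regions with signal values from 5.53 to 21.9. CDH15, a muscle cadherin gene, had 6 with signal values from 6.67 to 11.8. BHLHE23, ZC3H3 and AGRN had 5 each, and the strongest in BHLHE23, itself a basic helix-loop-helix gene, reached 41.6.

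No region lay within 100 kb of 2573 protein-coding records. The longest was RBFOX1, a neuronal splicing factor gene of 2474 kb, followed by the neuronal adhesion gene CNTNAP2 (2304 kb), the protocadherin gene PCDH15 (1825 kb), the axon guidance receptor gene ROBO2 (1743 kb) and CCSER1 (1478 kb). Length alone therefore did not go with regions in every gene. These records held 1 to 4 GATA3 regions in their stretch and 0 to 3 H3K27ac regions at −log10 q 5 or above.

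Promoters were searched for short motifs in windows of 300 bases, from 250 before to 50 after each start, on both strands. A BHLHE40 summit lay in 5646 of 22199 such windows, belonging to 5213 genes and 4777 regions. The E-box CACGTG was present in 13.6% of windows with a summit (interval 12.8% to 14.6%), in 6.53% of those without (6.16% to 6.92%) and in 8.34% of all. With a T before and an A after it, the motif was present in 3.26%, 0.598% and 1.27%. Thus most promoters with a summit did not hold the E-box in this window.

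The E-box share went up with signal value. In 4 classes of the windows with a summit, split at equal numbers of regions from weakest to strongest, it was 10.6%, 10.0%, 13.9% and 19.8% (interval of the last 17.8% to 21.9%). It was 27% in the 300 strongest promoters and 34% in the strongest 100. The palindromes CTCGAG and GTCGAC, made of the same letters and chosen after the data were seen, followed in part. CTCGAG was present in 5.63% of windows with a summit and 4.42% of those without, and in 4.68%, 5.44%, 6.23% and 6.13% of the 4 classes. GTCGAC was present in 2.71% and 1.22%, a ratio like that of the E-box, but in 3.58%, 2.97%, 1.84% and 2.48% of the 4 classes, so it did not go up with signal value. The rise was not particular to the E-box: the motif CCGGAA was present in 36.1%, 38.7%, 41.6% and 45.5% of the 4 classes. Median GC content was 63.7% in the weakest class and 67% in the strongest, and its part in the rise was not tested.

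**Figure D4:**
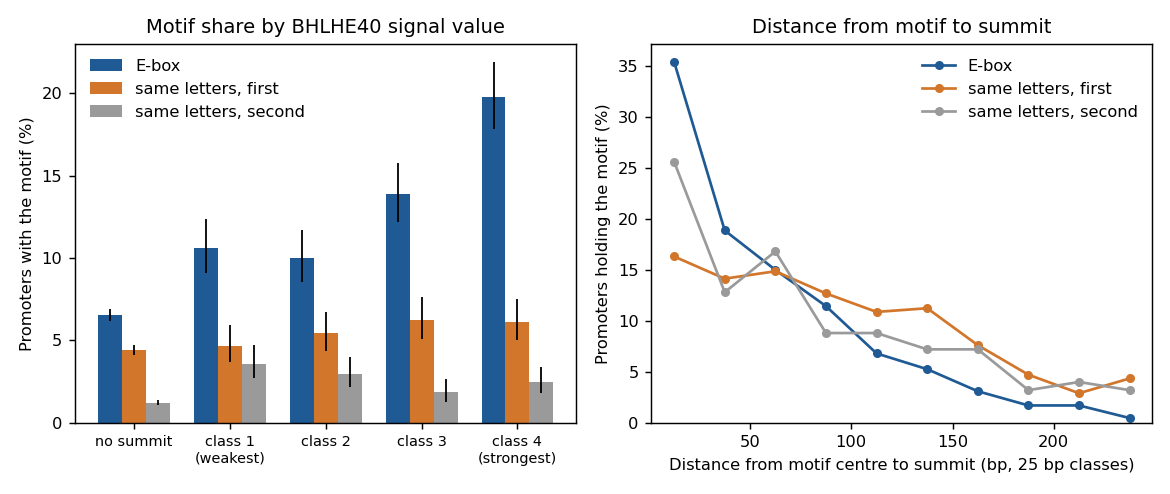
Left: share of promoter windows of 300 bases (y axis, %) that hold the E-box CACGTG or the same-letter palindromes CTCGAG (first) and GTCGAC (second), without a BHLHE40 summit and by class of signal value; bars are shares with 95% Wilson intervals. Right: share of bound promoters with each motif (y axis, %) by distance from the motif centre to the summit (x axis, classes of 25 bp). The E-box share reaches 19.8% in the strongest class, and 35.4% of E-boxes lie within 25 bp of the summit.

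Base composition differed between the groups, with a median GC content of 65.7% with a summit and 60.7% without. Within 4 equal classes of GC content, from low to high, the E-box was present in 10.1%, 11.1%, 14.8% and 15.4% of windows with a summit and in 3.32%, 7.81%, 8.21% and 7.95% of those without. The difference was therefore present in each class. GTCGAC was also more frequent with a summit in each class, at 1.48%, 2.92%, 2.84% and 2.65% against 0.544%, 1.37%, 1.79% and 1.45%. CTCGAG was less frequent with a summit in the highest class, at 5.98% against 6.67%. The E-box and both other palindromes contain CG. The median number of CG pairs per window was 28 with a summit and 16 without. In the lowest class it was 13 and 3. The part of CG pairs in the E-box difference was not tested.

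E-boxes lay close to summits. In the 647 bound regions with an E-box in the window, the median distance from the nearest one to the summit was 44.5 bp, and 35.4% were within 25 bp. The distance was 86 bp for CTCGAG (16.3% within 25 bp) and 66.5 bp for GTCGAC (25.6%). CCGGAA, the core recognised by ETS factors, lay as close, with a median of 47 bp and 30.7% within 25 bp. It was present in 40.5% of windows with a summit and 14.6% of those without, a wider gap in percentage points than that of the E-box. CAGCTG, an E-box that other helix-loop-helix dimers prefer, was present in 16.3% and 18.6%.

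The GATA motif AGATAA was rare where only BHLHE40 was present. It was found in 2.63% of windows with a BHLHE40 summit and no GATA3 summit, in 9.70% of those with both and in 17.7% of those with GATA3 only. The E-box was found in 13.9%, 12.8% and 7.91% of the same windows. For comparison, AGATAA was present in 7.91% of all windows and in 9.19% of those without a BHLHE40 summit. Without such a summit, it was present in 20.6% of the class lowest in GC content and 0.993% of the highest. Median GC content was 66.3% with BHLHE40 only, 63.3% with both and 61.7% with GATA3 only. The part of GC content in these shares was not tested. A match describes the letters of a window, and does not show that the protein was bound there.

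The 5 strongest promoters with an E-box belong to genes of varied function. CCDC86 (140) encodes a nucleolar protein, CLUAP1 (120) a protein of intraflagellar transport and STMN1 (98.6) the microtubule regulator stathmin. SCAP (64.2) encodes the escort protein of the sterol-sensing factors SREBP, and TBL1X (57.1) a subunit of nuclear corepressor complexes. The 5 strongest without an E-box were those of SDE2 (169), the deubiquitinase gene USP3 (115), MTF2 (95.7), which encodes a Polycomb-associated protein, the clathrin heavy chain gene CLTC (78.5) and the zinc finger gene ZNF384 (67.2). Strong signal was thus found at promoters of both kinds.

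Gene groups were compared by the share of members with a region, beside 57% of all genes, and by the share with a summit within 1 kb of a start, beside 48% of the 15843 genes with a listed start. The share with a region was above that of all genes in 12 of 16 lists. It was highest for immediate-early factors (32 of 33 genes), T-cell receptor signalling (35 of 37) and E-box binding helix-loop-helix factors (33 of 35). No test of these lists was made. The lists also differed in the other marks. An H3K27ac region at −log10 q 5 or above was assigned to 57.9% of all genes, to 94.6% of the receptor signalling genes and to 6.41% of olfactory receptors. A GATA3 region was assigned to 49.2% of all genes, to 91.9% of the receptor signalling genes and to 62.9% of the helix-loop-helix factors. The part of gene length and of these marks in the shares was not tested.

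**Figure D5:**
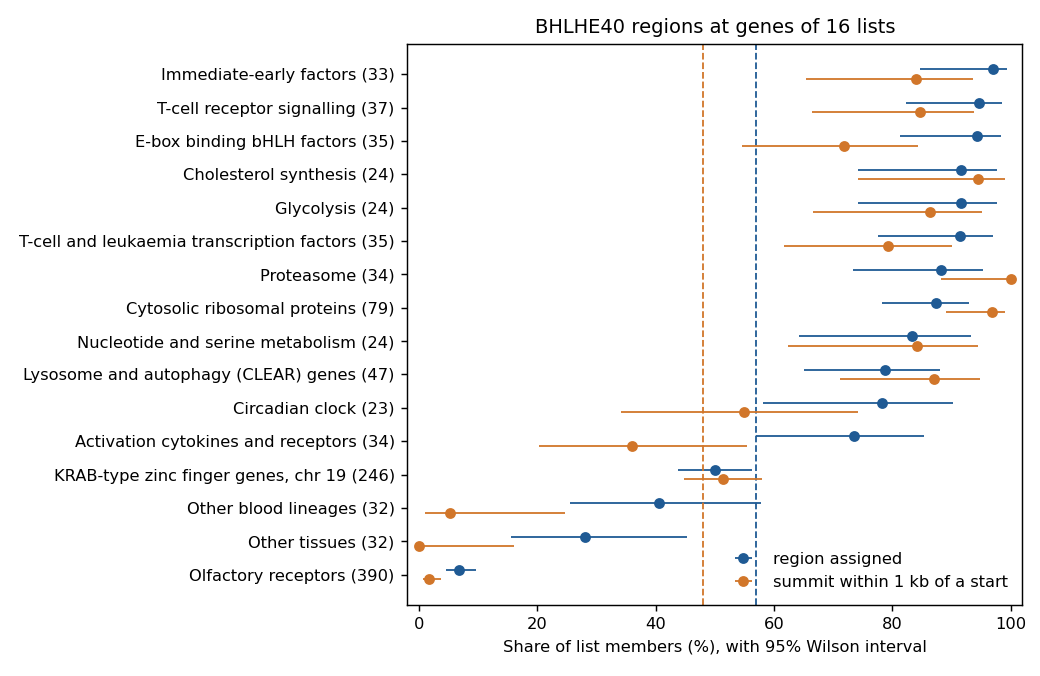
Share of list members (x axis, %) with an assigned BHLHE40 region (blue) and, among members with a listed start, with a summit within 1 kb of a start (orange), for 16 gene lists (y axis, number of members in brackets); bars are 95% Wilson intervals and dashed lines give all protein-coding genes (57% and 48%). The points of 12 lists lie to the right of the blue line, and olfactory receptors are lowest at 6.67% and 1.6%.

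Immediate-early genes, which are switched on within minutes of stimulation, were bound near their starts in 21 of 25 cases. DUSP2, a nuclear MAP kinase phosphatase, had the strongest region of the group, 103, and IER3 had 72.3. DUSP5, another phosphatase of ERK, and NR4A3 had the most regions, 12 each, with strongest signal values of 56.5 and 33.6. JUNB was the single member with no assigned region, but a summit with a signal value of 39.9 lay 103 bp from its record and had gone to HOOK2.

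Induced cytokines and surface receptors were divided. CD69 (99.2), the early activation antigen, IL2 (85.3), the T-cell growth factor, and CD44 (59.8) had the strongest regions. CD44 had the most, 15, followed by CD40LG with 14 and FASLG, the death ligand, with 13. No region was assigned to 9 of 34 members, among them TNF, IL4, IL13, CCL20 and LAG3. A summit assigned to LTA lay 6851 bp from TNF, and a summit assigned to KIF3A lay 6317 bp from IL4. Within 1 kb of a start, 9 of 25 members (36.0%, interval 20.2% to 55.5%) had a summit, and the interval holds the 48% of all genes.

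Genes of T-cell receptor signalling had a median of 4 regions. LCP2, the adaptor SLP-76, had the strongest region (106, rank 35), and PTPRC had the most, 22. PRKCQ, the protein kinase C theta of the immune synapse, had 16 regions with signal values up to 48.1. CD3G and CD8A had none assigned, and a summit lay 7482 bp from CD8A, nearer to CD8B. Summits within 1 kb of a start were present at 22 of 26 members.

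Transcription factors of T cells and T-cell leukaemia also had a median of 4 regions, with a median record length of 100.2 kb against 24.1 kb for all genes. FLI1, an ETS factor, had the strongest region (125, rank 20) among 14, and RUNX1 had the most. NFKB1 had 11 with signal values up to 67.7, and ETS1 had 15 with values up to 65.3. NOTCH3, TLX1 and TLX3 had none, the last of these being homeobox genes that are activated only in some T-cell leukaemias.

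The clock genes, the classical setting of BHLHE40, had a region in 18 of 23 cases (78.3%), beside 57% of all genes. Within 1 kb of a start, 11 of 20 had a summit (55.0%, interval 34.2% to 74.2%). That interval holds the 48% of all genes with a listed start. By strongest assigned region, PER1 (43.1) led the clock genes, followed by BHLHE40 (38.5), CRY2 (31.1), PER2 (29.9) and CRY1 (28.9). RORA, a nuclear receptor gene of 741 kb, had the most, 16, with signal values up to 18.9. BHLHE41, the closest relative of BHLHE40, had 1 region with a signal value of 8.75. NR1D2, NFIL3, HLF, CIART and CSNK1E had none assigned.

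NR1D2 shows how the rule can hide a bound gene. A region of signal value 45.4 peaked in the promoter window of NR1D2, 8.5 bp from the E-box printed above, but went to the overlapping neighbour NKIRAS1. With a summit inside the window of 300 bases, 5 of 20 clock genes were bound, beside 32.9% of all genes with listed starts, and NR1D2 was the only 1 of these 5 with an E-box in the window. Clock genes as a whole held an E-box in 6 of 20 windows, against 10.9% of all genes with listed starts.

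Among E-box binding factors themselves, HES1 (62.1), a Notch target, and TCF3 (46.6), which encodes the E proteins E12 and E47, had the strongest regions. TCF12, another E protein, had the most, 13. MLXIPL and TAL2 had none.

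Groups of housekeeping genes had a summit near a start in most cases. Proteasome subunits had a summit within 1 kb of a start in 29 of 29 cases, ribosomal proteins in 61 of 63 and cholesterol synthesis in 17 of 18. The counts were 19 of 22 for glycolysis, 16 of 19 for nucleotide and serine metabolism and 27 of 31 for lysosome and autophagy genes. The median number of regions was 1 in the first 3 lists, as in all genes. The strongest regions were those of RPS9 (59.1), PSMD11 (27.6) and SCAP (64.2). All 10 ribosomal genes without an assigned region, among them RPS25, RPL7A, RPL41 and FAU, had a summit within 469 bp that went to a neighbouring gene.

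Promoters of these housekeeping groups differed in the E-box. A summit inside the window of 300 bases was found for 51 ribosomal genes, of which 3 held an E-box (5.88%), and for 23 proteasome genes, of which none did. Of 14 lysosome and autophagy genes with such a summit, 8 held it (57.1%): ATP6V0B, ATP6V0D1, CLN3, CTSA, FNIP1, LAMP1, MCOLN1 and RRAGC. Many genes of that list are known targets of TFEB and its relatives, which bind the same letters, and 11 of its 31 members with a listed start held an E-box whether or not a summit was present. Of 11 glycolysis genes, 5 held it (45.5%): ALDOC, GAPDH, HK2, LDHA and PFKFB3. The share over all 5213 genes with a summit in the window was 14%.

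Glycolysis genes had a median of 2 regions, and the lists of cholesterol synthesis, of nucleotide and serine metabolism and of lysosome genes a median of 1. The pyruvate kinase gene PKM had the strongest region of glycolysis (66.3), and PFKFB3, which makes an activator of phosphofructokinase, the most (6). INSIG1, a sterol sensor partner of SCAP, had 7 regions with signal values up to 21.6. ODC1, the first enzyme of polyamine synthesis and a classical E-box target of MYC, had 7 with values up to 39.7. In the lysosome list FNIP1, a partner of folliculin, had the strongest region (65.3) and GLB1, the lysosomal beta-galactosidase, the most (12). Genes with none assigned included PFKL, SHMT1, PHGDH and CTSB.

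The lists of genes that define other cell types had shares below the 57% of all genes. Of other blood lineage genes, 13 of 32 (40.6%) had a region and 1 of 19 (5.26%) had a summit near a start. CEBPE, a granulocyte factor, had the strongest (37.8) and KLRD1, a natural killer receptor chain, the most (4). GATA1, HBB, MPO and CD14 were among those with none. Of genes of other tissues, 9 of 32 (28.1%) had a region and 0 of 20 had a summit near a start, with PRSS1 (72.6) leading for the reason given above and ALB, INS, GFAP, MYH7 and APOB without any.

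Olfactory receptors, which are silent in lymphocytes, had a region in 26 of 390 cases (6.67%), and in 4.10% with a limit of 10 kb. OR10T2 had the most, 3. OR10V1 had the strongest, with a signal value of 103 (rank 40), and neither of its 2 regions lay inside the record. Genes named ZNF on chromosome 19, most of which encode zinc finger repressors, had a region in 123 of 246 cases (50.0%), below the 57% of all genes, with 51.4% near a start. At an IDR of 0.01 the share was 41.5%, beside 51% of all genes. ZNF653 had the strongest (92.3), and ZNF331 and ZNF581 had the most, 4 each.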

How the data were processed

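ChIP-seq peak lists of 3 groups of 2 samples, out of 38 samples in 19 groups, were used. The other groups were not analysed here. MACS2 (version not given) and bcl2fastq 2.20, with build hg38, are named in the submitters' processing notes; the aligner is not given in the sources used here. A list covers both samples at once. The deposited columns used are a signal value, a −log10 q-value, a summit offset and a score. The signal and the score of each region are the authors' own. The authors' factor lists passed an irreproducible discovery rate (IDR) of 0.05, and a score of 830 corresponds to an IDR of 0.01. The H3K27ac list is pooled and holds many weak regions. Depth is unknown.

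Summits were assigned to the nearest of 20037 protein-coding records of the RefSeq table (GRCh38.p14) within 100 kb, with distance 0 inside a record. Ties went to the record whose nearer end was closer. Regions overlapped when they shared at least 1 bp. Promoter windows came from the RefSeq start table, where 15843 protein-coding genes matched. Coordinates are 1-based. Tools were Python 3.11.15 with pandas 2.3.3 and numpy 2.4.6, and figures used matplotlib 3.10.9. Rank correlations used scipy 1.17.1. Assignment was checked on simulated summits among 20037 records. For 2000 of 2000 it gave the same result as a second coding of the same rule.

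Genes, lists and settings were chosen with earlier results of these data known. Named genes are those of the 10 strongest regions, the 10 highest counts and the 10 highest sums, the 5 densest windows, the 5 strongest promoters with and without an E-box, the 5 highest counts without GATA3, the 5 longest unbound records, and in each list the leading members and up to 5 with no region. Others were named after their values were seen. Some genes that this rule selects are not reported here. The alternatives were other distance limits, gene records, thresholds, rankings, windows and overlaps. Motifs around all summits were not run, since no genome sequence was used here.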

Additional observations from a re-analysis of the deposited data

How the results depend on the processing

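Of 21 alternatives for 9 results, 11 stayed within 1.5 times the reported count or within the interval and 10 moved. The assigned share of 92.8% was 78.6% with a 10 kb limit, 99.4% with all RefSeq records and 93.1% at an IDR of 0.01. The share near a start of 31.9% was 35.3% at 2 kb and 34.6% at an IDR of 0.01. The H3K27ac share of assigned regions, 77.4%, fell to 61.6% when a −log10 q of at least 5 was required. The E-box share of 13.6% was 11.4% for any overlap of region and promoter. Of the 10 genes with the strongest region, 6 were shared with a ranking by −log10 q. Of the 10 genes with the most regions, 4 were shared by distance to starts and 7 at an IDR of 0.01. Of the 10 densest windows, 6 were found with windows of 50 kb and 3 when ranked by bases covered. The cause was not tested.

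Other counts kept within those limits: genes with a region numbered 10220 to 11583, 12 lists stayed above all genes, and 148 to 205 genes had at least 3 BHLHE40 regions and no GATA3 region. BACH2 kept the most regions in 3 of these settings, with 36 at an IDR of 0.01. By distance to starts it had 21, and ARID5B had as many. With all RefSeq start entries, added after seeing the data, the E-box share was 13.5%. No paired analysis was possible because the authors' list merges both samples, and leaving out a sample was not run for that reason. Unknown depth limits every count, since deeper libraries list more weak regions.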
